A study of Mus musculus with 6 samples.

Results

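The 47 genes described here, called enzymes for short, encode members of enzyme families or subunits of enzyme complexes. These families and complexes write or remove marks on histones and DNA other than the H3K9 marks set by EHMT1 and EHMT2. They were taken by symbol from the 54429 genes counted in each library, and all 47 were among the 20409 genes with enough reads to be tested. They comprise 7 genes of the H3K4 methyltransferase families, among them Kmt2e, which has no known methyltransferase activity. The others are 4 subunits of the Polycomb complex PRC2, 3 methyltransferases of H3K36 or H3K79, 6 histone demethylases and 7 acetyltransferases, with 11 zinc-dependent deacetylases, 3 sirtuins, 3 DNA methyltransferases and 3 TET dioxygenases.

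RNA was sequenced from the prefrontal cortex (PFC) of 6-month-old mice in 3 groups of 2 libraries: wild-type (C57BL/6 x C3H) mice given vehicle (WT + vehicle), PS19(P301S) mice given vehicle (Tau + vehicle) and PS19(P301S) mice given UNC0642 (Tau + UNC0642). PS19 mice carry a human tau transgene with the P301S mutation, driven by a mouse prion gene promoter, and UNC0642 is an inhibitor of the H3K9 methyltransferases EHMT1 (GLP) and EHMT2 (G9a). The drug was injected intraperitoneally once a day over a short course, tissue was taken on the following day, and vehicle was saline with DMSO. No wild-type mice given UNC0642 were among the groups analysed, so the response to the drug was read only in PS19 mice.

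H3K4 methylation marks active promoters and enhancers and is written by the KMT2 and SETD1 enzymes, whereas PRC2 methylates H3K27 and keeps developmental genes silent. Acetyltransferases open chromatin and deacetylases close it, and several deacetylases of class IIa shuttle out of the nucleus when neurons fire. DNA methyltransferases add methyl groups to cytosine, and TET enzymes oxidise them, a process that is unusually active in postmitotic neurons.

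RefSeq promoter windows, running from 250 bases before to 50 bases after an annotated start, were found for 36 of the 47 genes on GRCm38.p6, the assembly of the mm10 build used for the counts. None was given for Kmt2b, Kmt2e, Setd1b, Nsd1, Kdm2a, Kdm5a, Kdm6b, Kat6a, Hdac1, Hdac3 and Hdac10. The windows of these enzymes were CpG rich, with a median observed-to-expected CpG ratio of 0.824 over 51 windows against 0.384 over all 32851 windows in the table. The GC box, searched as GGGCGG on both strands, was found in 62.7% of the enzymes' windows and in 35.7% of all windows. The E-box CACGTG was in 7.84% and 7.15%, the ETS core CCGGAAG in 5.88% and 8.86%, and the cyclic AMP response element TGACGTCA in 0 of 51 and 1.79%. Shown here are the 250 bases upstream of the start of 3 H3K4 methyltransferases, the class in which most called changes lay, and of Eed, the single gene of the 47 that was called higher in any comparison. They are written from the 5′ end in the direction of transcription, with GC boxes in capitals, neighbouring boxes running together. Their positions are chr9:44881290-44881539 for Kmt2a, chr5:25498784-25499033 for Kmt2c, chr15:98871206-98871455 for Kmt2d and chr7:89980977-89981226 for Eed, all on the minus strand.
Kmt2a: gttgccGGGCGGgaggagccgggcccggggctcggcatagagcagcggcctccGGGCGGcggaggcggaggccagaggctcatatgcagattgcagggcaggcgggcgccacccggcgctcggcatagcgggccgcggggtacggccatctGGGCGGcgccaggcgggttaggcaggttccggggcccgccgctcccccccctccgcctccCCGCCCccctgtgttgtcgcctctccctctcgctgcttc
Kmt2c: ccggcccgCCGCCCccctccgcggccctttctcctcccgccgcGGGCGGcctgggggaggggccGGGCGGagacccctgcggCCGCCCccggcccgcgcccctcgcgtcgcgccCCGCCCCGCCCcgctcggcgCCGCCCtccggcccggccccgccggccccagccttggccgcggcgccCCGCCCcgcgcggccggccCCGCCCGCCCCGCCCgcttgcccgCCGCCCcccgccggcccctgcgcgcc
Kmt2d: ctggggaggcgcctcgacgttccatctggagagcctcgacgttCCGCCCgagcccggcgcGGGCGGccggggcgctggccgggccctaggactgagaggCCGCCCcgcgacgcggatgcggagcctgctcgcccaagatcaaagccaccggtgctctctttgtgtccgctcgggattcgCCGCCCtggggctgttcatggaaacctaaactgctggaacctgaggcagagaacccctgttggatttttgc
Eed: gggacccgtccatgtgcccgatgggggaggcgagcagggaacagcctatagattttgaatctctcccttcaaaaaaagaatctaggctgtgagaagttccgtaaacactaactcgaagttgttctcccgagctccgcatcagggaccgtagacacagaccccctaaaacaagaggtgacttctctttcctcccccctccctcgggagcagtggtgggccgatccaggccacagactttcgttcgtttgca
The Kmt2c stretch held 12 GC boxes and 48 CpG dinucleotides, and those of Kmt2a and Kmt2d held 4 boxes each. The Eed stretch held 0 boxes and 12 CpG dinucleotides. Of the 4 windows found for H3K4 methyltransferases, 3 held a GC box. The window of Setd1a, which was called lower after UNC0642, is the one without a box and is not shown. Kmt2c was not called in any comparison. A match of letters is a description of the sequence and not evidence that a factor bound there.

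Counts assigned to genes totalled between 17005664 and 28972176 per library, so that a floor of 3 counts equalled 0.104 to 0.176 CPM, the unit of counts scaled to a fixed library total. The transgene promoter shares sequence with mouse Prnp, and the library labelled WT replicate 1 had 1650 CPM of Prnp, within the 1470 to 1690 CPM of the 4 PS19 libraries, whereas WT replicate 2 had 873 CPM. Mapt, the mouse tau gene, gave 576 CPM in the library labelled WT replicate 1, against 449 CPM in WT replicate 2 and 571 to 614 CPM in the PS19 libraries. The genotype label of this library is thus in doubt, and every comparison with WT + vehicle, as well as every statement on both WT libraries, rests on it. Xist was at most 0.197 CPM in the library labelled WT replicate 1 and both Tau + UNC0642 libraries, where the Y-linked Ddx3y reached 101 CPM, and was at 191 to 317 CPM in WT replicate 2 and both Tau + vehicle libraries, where Ddx3y was at most 0.644 CPM. Thus the sex of the mice and the drug cannot be told apart in the comparison of Tau + UNC0642 with Tau + vehicle. WT + vehicle held 1 library of each pattern, the low-Xist one being that of doubtful genotype. Sex was therefore unbalanced in both comparisons with WT + vehicle too. Tau replicate 2 stood apart in its oligodendrocyte markers, which summed to 5655 CPM against 1505 to 3031 CPM elsewhere, and in its striatal markers, at 193 CPM against 77.3 to 97.1 CPM. All 8 neuronal markers had at least 2135 counts in every library.

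All 47 enzymes had at least 3 counts in every library, and 41 lay above the median level of the genes tested. Their median was 65.1 CPM against 9.98 CPM, their median exon length 8705 bases against 3561, and their median transcript GC content 51.2% against 48.7%. Per kb of exon, the scale used here to compare genes, Hdac11 had the highest level at 30.4 CPM per kb, followed by the H3K36 methyltransferase Nsd1 at 22.4 and the class I deacetylases Hdac2 and Hdac3 at 18.2 and 17.3. Dnmt3b, a de novo DNA methyltransferase used mainly in early development, was lowest at 0.0856 CPM per kb, with between 3 and 23 counts per library. Within PRC2, Ezh1 exceeded its paralogue Ezh2, at 9.89 against 1.59 CPM per kb, and Dnmt3a exceeded Dnmt3b at 6.72 against 0.0856. For 38 of the 47 genes the highest library was less than 1.5 times the lowest, and their summed level ranged only from 3202 to 3504 CPM.

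**Figure D1:**
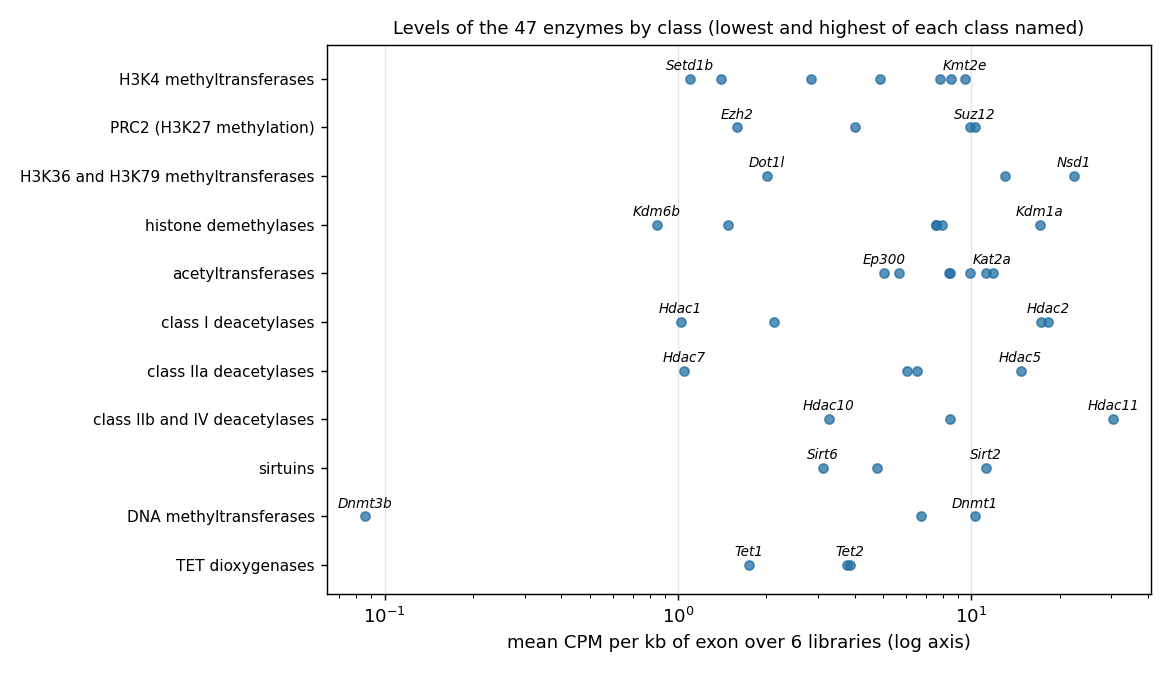
Mean CPM per kb of exon over the 6 libraries (log axis) for the 47 enzymes, 1 point per gene, in rows by class with the lowest and highest gene of each class named. Levels run from 0.0856 for Dnmt3b to 30.4 for Hdac11, and the next lowest gene after Dnmt3b is Kdm6b at 0.847.

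The first comparison asked which of these enzymes differed between PS19 and wild-type mice, the second what UNC0642 changed in PS19 mice, and the third how treated PS19 mice compared with wild type. A gene was called when edgeR's quasi-likelihood p was under 0.05 and its fold change at least 1.2, the threshold of the study, with no adjustment for multiple testing. In Tau + vehicle against WT + vehicle, 1 of the 47 was called (Hdac7, lower), where 9.81% of all genes tested were called and 6.1% were called lower. In Tau + UNC0642 against Tau + vehicle, 5 of 47 (10.6%) were called (Kmt2a, Kmt2d, Setd1a, Setd1b and Tet1), all lower, where 7.69% of all genes were called and 3.95% called lower. In Tau + UNC0642 against WT + vehicle, 6 of 47 (12.8%) were called, Eed higher and Kmt2b, Kmt2d, Setd1b, Kdm2b and Tet1 lower, against 9.47% of all genes and 5.69% called lower. The last 2 comparisons share the treated libraries and the first 2 the Tau + vehicle libraries, so their calls are not independent. None of the 47 had a Benjamini-Hochberg adjusted p under 0.05 by edgeR, the smallest being 0.288, 0.432 and 0.177 in the 3 comparisons, where 0.157%, 0.0196% and 0.216% of all genes did. At an unadjusted p under 0.05 alone, 2, 7 and 10 of the 47 passed, where 12.4%, 8.86% and 12.1% of all genes did.

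The changes were small. The median absolute log2 fold change of the 47 was 0.095, 0.11 and 0.15 in the 3 comparisons, against 0.17, 0.16 and 0.18 over all genes tested, and the median standard error was 0.10 against 0.18. The median signed log2 fold change was -0.01, -0.07 and -0.09, with 27, 33 and 30 of the 47 below 0, where the median of all genes was between -0.01 and 0. Libraries of the compared groups did not overlap for 15, 18 and 27 of the 47, where 43.2%, 41.3% and 44.4% of all genes did not overlap. The share without overlap was thus below that of all genes in the first 2 comparisons and above it in the third.

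**Figure D2:**
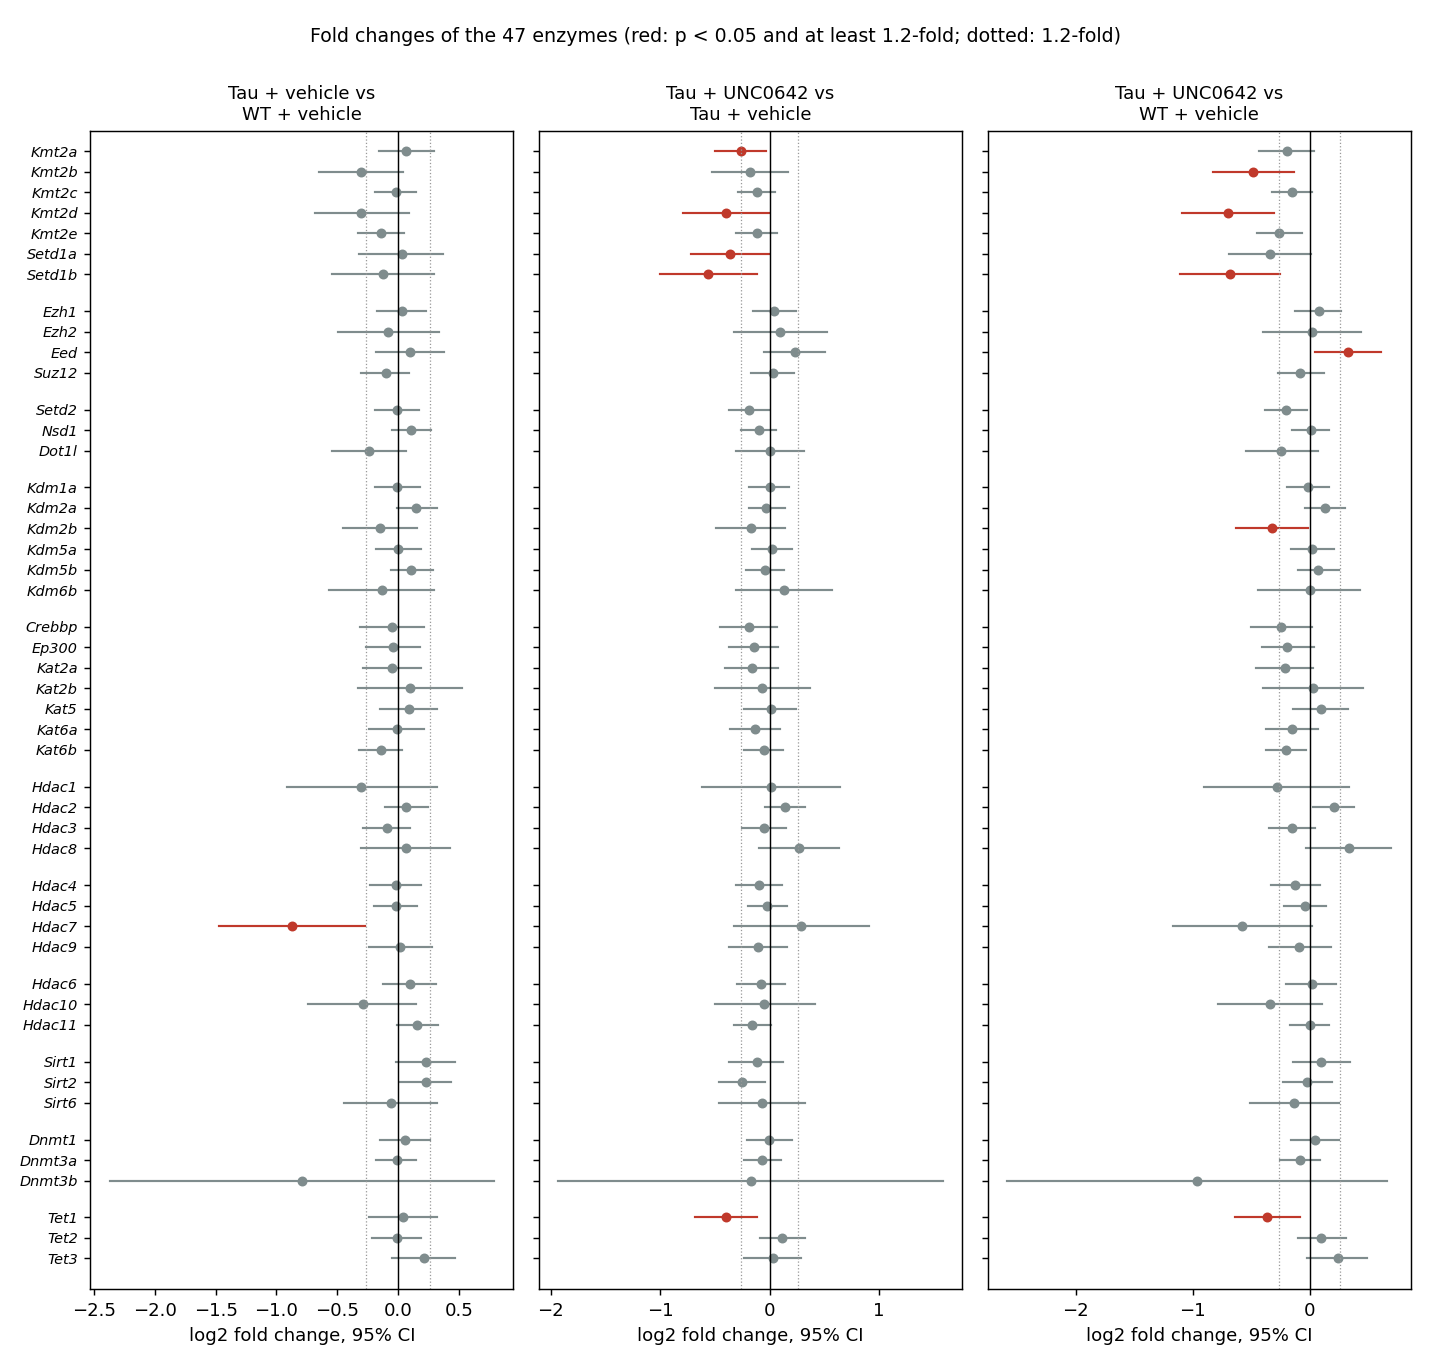
Log2 fold changes (horizontal axes) of the 47 enzymes by edgeR's quasi-likelihood fit in the 3 comparisons, with 95% confidence intervals, in blocks by class and red where called. The 1 red point on the left is Hdac7, the 5 in the middle all lie below 0, and on the right 5 lie below 0 and Eed above it.

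Among the H3K4 methyltransferases, all 7 had log2 fold changes below 0 in Tau + UNC0642 against Tau + vehicle, and 4 of them (Kmt2a, Kmt2d, Setd1a and Setd1b) passed the threshold. Their median log2 fold change was -0.26, against 0 over all genes tested, and their levels summed to 502 and 461 CPM in the treated libraries, 594 and 528 CPM in Tau + vehicle, and 556 and 636 CPM in WT + vehicle. Against WT + vehicle the 7 were again all below 0, with a median of -0.34 and 3 called (Kmt2b, Kmt2d and Setd1b). None of the 7 was called in Tau + vehicle against WT + vehicle, where 5 were below 0 and the median was -0.12.

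Kmt2d (MLL4), a writer of enhancer H3K4 monomethylation, had 107 and 134 CPM in WT + vehicle, 113 and 82.3 in Tau + vehicle, and 86.1 and 62.7 in Tau + UNC0642. Both treated libraries were below both WT libraries, whereas the treated replicate 1 lay just above Tau replicate 2. Kmt2d (chr15:98831669-98871204) fell by 0.40 on the log2 scale from Tau + vehicle to Tau + UNC0642 (SE 0.18; adjusted p = 0.555 by edgeR). It lost this call under 6 of 18 alternatives, among them the fit with a term for libraries with high Xist (-0.08), and leaving out Tau replicate 1 (-0.15) or UNC0642 replicate 2 (-0.19). Against WT + vehicle its log2 fold change was -0.70 (SE 0.18; adjusted p = 0.177). This second change was called under each of the 18 alternatives tried, and ran from -0.94 to -0.48 when a library was left out. In Tau + vehicle against WT + vehicle it was -0.30 (SE 0.17; adjusted p = 0.515) and was not called.

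Setd1b, a catalytic subunit of a COMPASS complex that trimethylates H3K4 at promoters, had 12.9 and 18.3 CPM in WT + vehicle, 13.2 and 15.6 in Tau + vehicle, and 10.8 and 8.69 in Tau + UNC0642. The treated libraries were the lowest of the 6. Setd1b (chr5:123142193-123168629) had the largest log2 fold change below 0 of the 47 in this comparison, at -0.56 (SE 0.20; adjusted p = 0.474 by edgeR), and -0.68 against WT + vehicle (SE 0.20; adjusted p = 0.223). The first lost its call under 3 of 18 alternatives, with the Xist term (-0.05), without Tau replicate 2 (-0.44) and without UNC0642 replicate 2 (-0.40). The second lost its call with the Xist term (-0.40), without WT replicate 2 (-0.40) and without UNC0642 replicate 2 (-0.52). Its paralogue Setd1a had 9.66 and 10.7 CPM in WT + vehicle, 10.6 and 10.1 in Tau + vehicle, and 7.64 and 8.43 in Tau + UNC0642. Again the treated pair was lowest, with a log2 fold change of -0.36 against Tau + vehicle (SE 0.16; adjusted p = 0.549), and it lost its call under 14 of 18 alternatives. Setd1a lies at chr7:127776670-127800122, where 1 annotated gene on the opposite strand and 1 on the same strand overlap it, so its counts may hold reads of either.

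Kmt2a (MLL1), a promoter H3K4 methyltransferase needed in neurons for memory, had 132 and 158 CPM in WT + vehicle, 164 and 141 in Tau + vehicle, and 129 and 125 in Tau + UNC0642. The treated libraries were below all others, the library labelled WT replicate 1 being nearest. Kmt2a (chr9:44803355-44881296) fell by 0.26 on the log2 scale (SE 0.10; adjusted p = 0.515 by edgeR), at the edge of the 1.2-fold threshold, and 12 of 18 alternatives took it off the call. Kmt2b (MLL2), its close paralogue, had 35.1 and 29.8 CPM in WT + vehicle, 29.6 and 22.9 in Tau + vehicle, and 25.9 and 20.7 in Tau + UNC0642. Every PS19 library lay below both WT libraries. Kmt2b (chr7:30568858-30588726) was called lower, at -0.48 (log2), in Tau + UNC0642 against WT + vehicle (SE 0.16; adjusted p = 0.276), and it was no longer called at -0.36 without the library labelled WT replicate 1 and at -0.32 without UNC0642 replicate 2. In Tau + vehicle against WT + vehicle it had the largest absolute value of its class, -0.30 (SE 0.16; adjusted p = 0.457).

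Kmt2c, the paralogue of Kmt2d, ranged from 148 to 171 CPM, and Kmt2e, a member of the family without known methyltransferase activity, from 87.3 to 114 CPM. Both treated libraries were the lowest of the 6 for each gene, and neither was called in any comparison. The log2 fold changes against Tau + vehicle were -0.12 for both genes (SE 0.08 and 0.09). Against WT + vehicle they were -0.15 for Kmt2c (SE 0.08) and -0.26 for Kmt2e (SE 0.09), both under 1.2-fold. That change of Kmt2e was called under some alternatives, among them library size alone, at least 10 counts in every library and offsets for GC content.

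**Figure D3:**
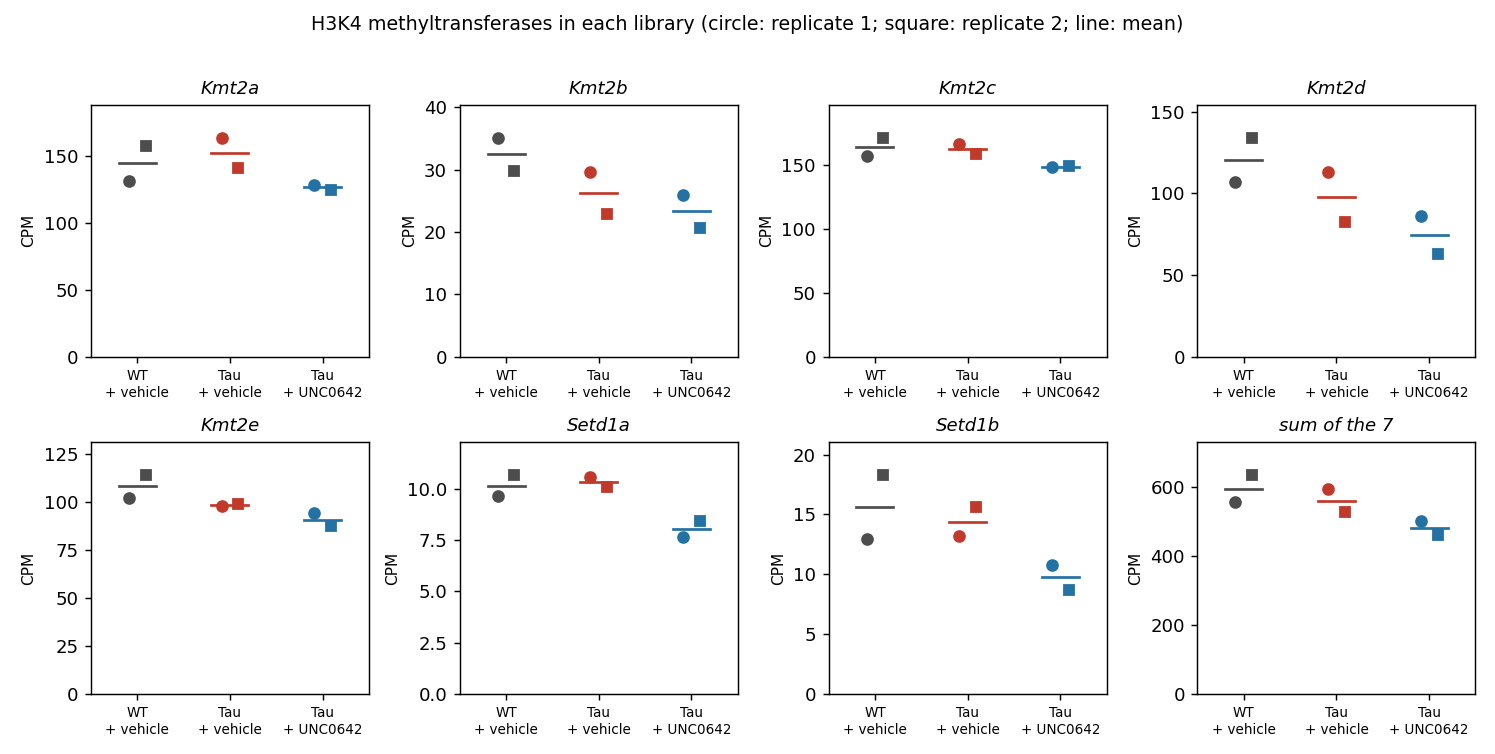
CPM (vertical axes, from 0) of the 7 H3K4 methyltransferases and their sum in each of the 6 libraries, with circles for replicate 1, squares for replicate 2 and lines for group means. In 6 of the 8 panels (Kmt2a, Kmt2c, Kmt2e, Setd1a, Setd1b and the sum) both Tau + UNC0642 points lie below the other 4.

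Several measures moved with this class. With a term for the libraries with high Xist, its median log2 fold change against Tau + vehicle was -0.05, 6 of 7 were below 0 and 0 were called. That fit draws the contrast through the difference between the 2 WT libraries, 1 of which had PS19-like Prnp. Without UNC0642 replicate 2 the class had a median of -0.19 and 0 calls, and of all 47 enzymes 0 were called. Without Tau replicate 1 it had a median of -0.15 and 1 call. Transcript GC content was 58.4% for Kmt2d, 59.0% for Setd1b, 59.1% for Kmt2b and 57.0% for Setd1a, and 50.6% for Kmt2a, 47.6% for Kmt2c and 45.9% for Kmt2e. In the 2371 genes with at least 50 counts on average in the same GC range as those first 4, the median deviation from the gene's mean over libraries was -0.059 and -0.022 (log2) in the treated libraries, 0.065 and -0.01 in Tau + vehicle, and 0.016 and 0.012 in WT + vehicle. With offsets for GC content, chosen after seeing the data, all 7 stayed below 0 against Tau + vehicle with a median of -0.23 and 1 call, and with offsets for GC content and transcript length the median was -0.17. Against WT + vehicle the 7 were below 0 under every setting tried, with medians between -0.38 and -0.25.

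**Figure D4:**
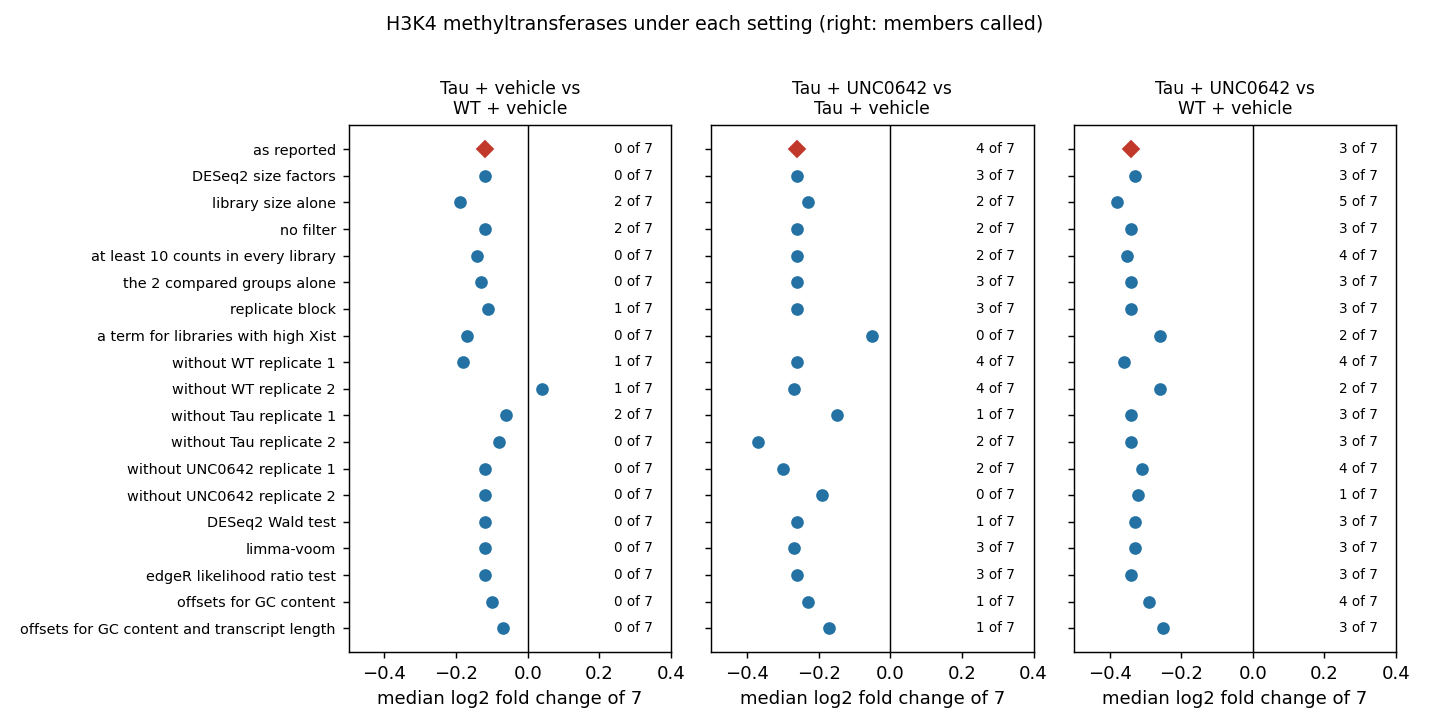
Median log2 fold change (horizontal axes) of the 7 H3K4 methyltransferases under each setting, with the number of the 7 called at the right of each row, for the 3 comparisons, and the diamond showing the fit as reported. In the middle panel the median lies between -0.37 and -0.05, nearest 0 with the Xist term, and in the right panel no median is above -0.25.

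PRC2 showed no call in the first 2 comparisons. Its H3K27 methyltransferases Ezh1 and Ezh2 ranged from 69.5 to 79.8 CPM and from 9.06 to 12.7 CPM, and the scaffold subunit Suz12 from 48.6 to 53.2 CPM. Suz12 had the largest absolute log2 fold change of the 4 in Tau + vehicle against WT + vehicle, -0.10 (SE 0.09; adjusted p = 0.659 by edgeR). Eed, which reads H3K27me3 and stimulates the complex, had 13.6 and 14.1 CPM in WT + vehicle, 14.0 and 15.7 in Tau + vehicle, and 17.3 and 17.5 in Tau + UNC0642. The treated libraries were the highest of the 6. Eed (chr7:89954654-89980983) rose by 0.33 on the log2 scale against WT + vehicle (SE 0.13; adjusted p = 0.339 by edgeR), or 0.31 and no longer called without the library labelled WT replicate 1, and was 0.23 (SE 0.13; adjusted p = 0.633) against Tau + vehicle. Its call was lost under 5 of 18 alternatives, and 1 annotated gene on each strand overlaps it.

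Of the H3K36 and H3K79 enzymes none was called. Setd2, which trimethylates H3K36 in transcribed gene bodies, had 140 and 154 CPM in WT + vehicle, 143 and 149 in Tau + vehicle, and 131 and 124 in Tau + UNC0642. The treated libraries were the lowest, and the log2 fold change of -0.19 against Tau + vehicle (SE 0.08; adjusted p = 0.537 by edgeR) was under 1.2-fold. Nsd1, an H3K36 dimethyltransferase, had 375 to 427 CPM, with the Tau + vehicle pair highest. Dot1l, the H3K79 methyltransferase, ranged from 14.7 to 20.6 CPM, with a log2 fold change of -0.24 in Tau + vehicle against WT + vehicle (SE 0.14; adjusted p = 0.503).

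Of the histone demethylases only Kdm2b was called, in Tau + UNC0642 against WT + vehicle. Kdm1a (LSD1), an H3K4 demethylase, ranged from 85.8 to 92.1 CPM, Kdm5a and Kdm5b, which remove H3K4 trimethylation, from 106 to 117 and from 119 to 136 CPM, and the H3K27 demethylase Kdm6b from 5.38 to 6.58 CPM. None of these 4 was called in any comparison. Kdm2a, an H3K36 demethylase, had 101 and 105 CPM in WT + vehicle and 112 to 116 CPM in the 4 PS19 libraries, which did not overlap. Its log2 fold change of 0.15 in Tau + vehicle against WT + vehicle (SE 0.07; adjusted p = 0.433 by edgeR) was the largest of the class there. Kdm2b, which also recruits a Polycomb complex to CpG islands, had 18.7 and 17.1 CPM in WT + vehicle, 16.7 and 15.6 in Tau + vehicle, and 12.8 and 15.7 in Tau + UNC0642. Only the treated replicate 1 stood clearly lower. Kdm2b (chr5:122870665-122989823) was called lower against WT + vehicle at -0.32 (SE 0.14; adjusted p = 0.397), and lost its call under 8 of 18 alternatives, among them -0.18 without UNC0642 replicate 1 and -0.26 without the library labelled WT replicate 1. Against Tau + vehicle it was -0.17 (SE 0.14; adjusted p = 0.76).

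None of the 7 acetyltransferases was called. Crebbp (CBP), a coactivator acetylating H3K27 and needed for long-term memory, had 132 and 153 CPM in WT + vehicle, 152 and 124 in Tau + vehicle, and 130 and 112 in Tau + UNC0642. The ranges overlapped between treated and untreated PS19 mice, with a log2 fold change of -0.19 (SE 0.12; adjusted p = 0.674 by edgeR). Its paralogue Ep300 ranged from 64.9 to 79.7 CPM. The SAGA-type enzymes Kat2a and Kat2b ranged from 36.6 to 46.1 and from 21.5 to 33.6 CPM, and Kat5 (TIP60) from 34.8 to 41.8 CPM. Kat2b varied most, with both its lowest and its highest library in the vehicle groups. Kat6a ranged from 70.6 to 86.8 CPM, and its H3K23 acetylating paralogue Kat6b had 154 and 153 CPM in WT + vehicle, 140 and 138 in Tau + vehicle, and 141 and 127 in Tau + UNC0642. Kat6b was lower in every PS19 library than in both WT libraries, with a log2 fold change of -0.14 in Tau + vehicle (SE 0.08; adjusted p = 0.483).

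Hdac7, a class IIa deacetylase known for its role in endothelial cells and lymphocytes, was the only enzyme called between Tau + vehicle and WT + vehicle. It had 11.2 and 8.01 CPM in WT + vehicle, 4.97 and 5.61 in Tau + vehicle, and 4.62 and 8.16 in Tau + UNC0642. Both Tau + vehicle libraries were below both WT libraries, and the treated pair spanned the gap. Hdac7 (chr15:97792664-97844502) fell by 0.87 on the log2 scale, or 1.82-fold (SE 0.27; adjusted p = 0.288 by edgeR). Its log2 fold change was -0.61 without the library labelled WT replicate 1, which leaves 3 vehicle libraries of the same Xist pattern, -0.78 without Tau replicate 1 and -0.60 with the Xist term, and it was no longer called in any of these. With that term Sirt2, called higher, was the single enzyme called in this comparison. Against Tau + vehicle the treated libraries gave 0.29 (SE 0.28; adjusted p = 0.806), which turned to -0.19 without UNC0642 replicate 2.

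Endothelial markers moved beside Hdac7. The 8 markers summed to 205 and 193 CPM in WT + vehicle, 145 and 155 in Tau + vehicle, and 147 and 193 in Tau + UNC0642, so that the treated replicate with the higher sum was also that with more Hdac7. Of the 8, 4 (Cldn5, Flt1, Tek and Slco1a4) were called lower in Tau + vehicle against WT + vehicle, where 6.1% of all genes were called lower. Cldn5 had a log2 fold change of -1.10 (SE 0.17; adjusted p = 0.0467 by edgeR). The rest were not called, with Cdh5, Pecam1 and Ly6c1 at -0.36, -0.28 and -0.13, and Esam going the other way at 0.14. All 8 had at least 80 counts in every library. In bulk tissue fewer cells of a type and less RNA per cell cannot be told apart, and the part of this difference in the Hdac7 result was not tested.

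The other class IIa enzymes were not called. Hdac4 ranged from 86.0 to 104 CPM, Hdac5 from 122 to 135 CPM and Hdac9 from 85.5 to 108 CPM, with overlapping groups in all 3 comparisons and absolute log2 fold changes up to 0.12. Class I deacetylases, of which Hdac1 and Hdac2 belong to corepressor complexes such as NuRD and Sin3, were not called. Hdac2, which restrains memory genes in neurons, had 78.3 and 74.2 CPM in WT + vehicle, 78.1 and 81.9 in Tau + vehicle, and 87.3 and 88.4 in Tau + UNC0642. The treated pair was highest, at a log2 fold change of 0.21 against WT + vehicle (SE 0.08; adjusted p = 0.348) that was under 1.2-fold. Hdac1, with 2.82 to 4.49 CPM, had the largest estimate of its class in Tau + vehicle against WT + vehicle, -0.30 (SE 0.28; adjusted p = 0.694 by edgeR), and its groups overlapped. Hdac3 lay between 66.9 and 69.8 CPM in every library but WT replicate 1, where it was higher. Hdac8, on the X chromosome, ranged from 8.69 to 11.8 CPM, and both treated libraries were above both Tau + vehicle libraries, with a log2 fold change of 0.27 (SE 0.16; adjusted p = 0.673).

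Hdac6, the X-linked cytoplasmic deacetylase of tubulin and tau, was at 45.8 to 53.4 CPM, and its log2 fold changes lay between -0.08 and 0.10. Their 95% intervals reached no further than -0.30 and 0.31. Hdac10, a polyamine deacetylase, ranged from 8.05 to 14.0 CPM, with a log2 fold change of -0.29 in Tau + vehicle against WT + vehicle (SE 0.20; adjusted p = 0.579 by edgeR). Hdac11, abundant in oligodendrocytes and neurons, had 111 and 114 CPM in WT + vehicle, 122 and 129 in Tau + vehicle, and 111 and 114 in Tau + UNC0642. The Tau + vehicle pair was higher than all others, and the log2 fold change from there to Tau + UNC0642 was -0.16 (SE 0.08; adjusted p = 0.587).

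Sirt2, a tubulin deacetylase enriched in oligodendrocytes, followed the same order as Hdac11. It had 55.7 and 51.6 CPM in WT + vehicle, 59.6 and 66.1 in Tau + vehicle, and 51.4 and 53.9 in Tau + UNC0642. Its log2 fold changes of 0.23 (SE 0.09; adjusted p = 0.374 by edgeR) in Tau + vehicle against WT + vehicle and -0.25 (SE 0.09; adjusted p = 0.492) after UNC0642 were both just under 1.2-fold. Without Tau replicate 2 they were 0.16 and -0.18. The 10 oligodendrocyte markers, with at least 109 counts in every library, summed to 3031 and 1505 CPM in WT + vehicle, 2096 and 5655 in Tau + vehicle, and 2176 and 2321 in Tau + UNC0642. Of them, 4 were called higher in Tau + vehicle against WT + vehicle, where 9.81% of all genes were called in either direction. The libraries of these groups overlapped for all 10 markers, where 43.2% of all genes did not overlap. After UNC0642, 3 of the markers were called lower, where 3.95% of all genes were. The part of these markers in the Sirt2 values was not tested. Sirt1, the nuclear deacetylase that also acts on tau, had 23.5 to 28.8 CPM with the Tau + vehicle libraries above both WT libraries, and the chromatin-bound Sirt6 had 7.82 to 9.62 CPM with overlapping vehicle groups.

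**Figure D5:**
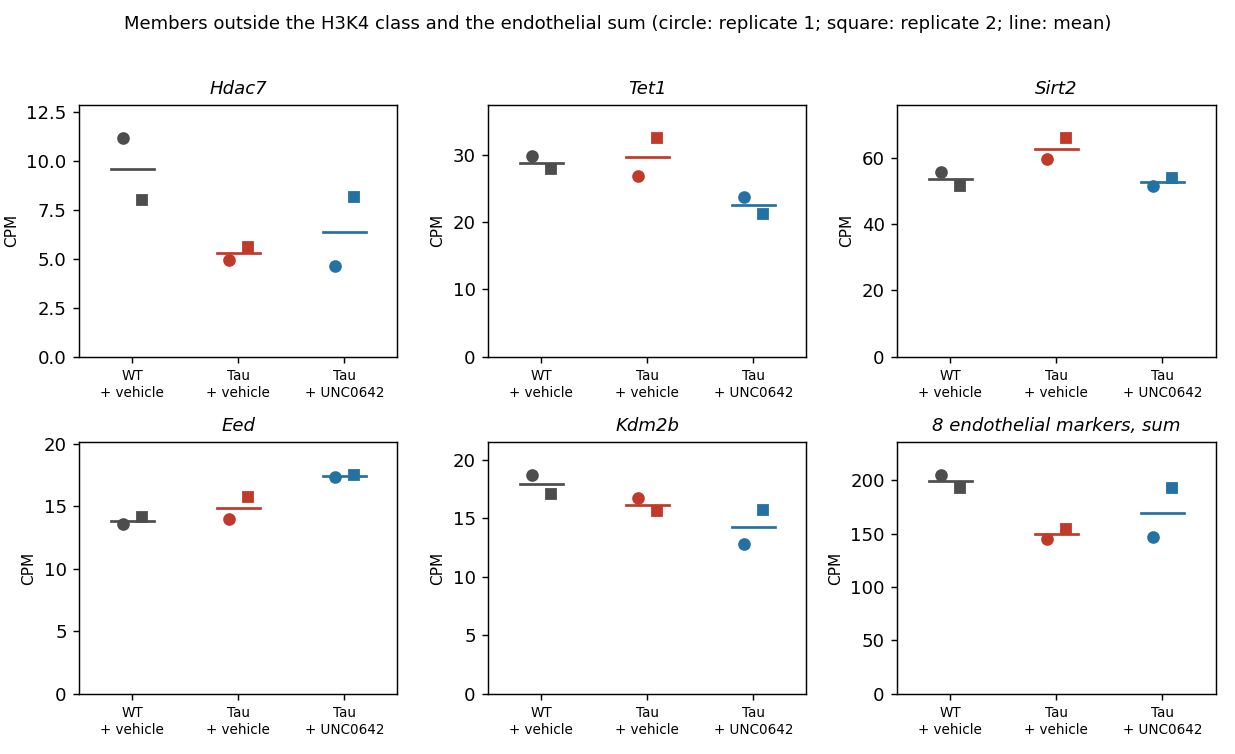
CPM (vertical axes, from 0) of Hdac7, Tet1, Sirt2, Eed, Kdm2b and the sum of 8 endothelial markers in each of the 6 libraries, with circles for replicate 1, squares for replicate 2 and lines for group means. Hdac7 and the endothelial sum share the order low in Tau + vehicle and split in Tau + UNC0642, at 4.62 and 8.16 CPM for Hdac7.

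The maintenance and de novo DNA methyltransferases Dnmt1 and Dnmt3a stayed within 71.5 to 82.0 CPM and 106 to 116 CPM. Neither was called, and the 95% intervals of their log2 fold changes lay within -0.25 and 0.26 in all 3 comparisons. Dnmt3b was too low to compare, with log2 fold changes of -0.79 (SE 0.71; adjusted p = 0.679 by edgeR) in Tau + vehicle against WT + vehicle and -0.17 (SE 0.79; adjusted p = 0.97) after UNC0642.

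Tet1, which converts 5-methylcytosine to 5-hydroxymethylcytosine, had 29.8 and 27.8 CPM in WT + vehicle, 26.9 and 32.5 in Tau + vehicle, and 23.7 and 21.2 in Tau + UNC0642. The treated libraries were the lowest of the 6. Tet1 (chr10:62804570-62908996) fell by 0.40 on the log2 scale against Tau + vehicle (SE 0.13; adjusted p = 0.432 by edgeR) and by 0.36 against WT + vehicle (SE 0.13; adjusted p = 0.30). Its transcript GC content was 43.7%. Against Tau + vehicle it was called with the Xist term (-0.50) and with both kinds of offset, and it lost the call without UNC0642 replicate 2 (-0.32) and without Tau replicate 2 (-0.26), and, against WT + vehicle, without the library labelled WT replicate 1 (-0.31) and without UNC0642 replicate 2 (-0.28). Tet2 and Tet3 were not called. Tet2 had 66.4 and 70.3 CPM in Tau + UNC0642 and overlapped Tau + vehicle, and Tet3 had 52.1 and 61.2 CPM in WT + vehicle, 70.1 and 60.6 in Tau + vehicle, and 61.9 and 71.5 in Tau + UNC0642. For Tet3, the TET gene with the largest estimate in Tau + vehicle against WT + vehicle, the log2 fold change was 0.21 (SE 0.12; adjusted p = 0.491).

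Of 68 further genes of the same pathways, 67 were tested. In Tau + vehicle against WT + vehicle 6 (8.96%) were called, where 9.81% of all genes were. In Tau + UNC0642 against Tau + vehicle 6 (8.96%) were called, where 7.69% of all genes were. In Tau + UNC0642 against WT + vehicle 8 (11.9%) were called, where 9.47% of all genes were. The 9 partners of the H3K4 enzymes, among them the shared COMPASS subunits Wdr5, Ash2l, Rbbp5 and Dpy30, gave 0 calls in the 3 comparisons at this threshold, with medians of 0.02, -0.06 and 0.04. Among those called lower after UNC0642 against Tau + vehicle were the EHMT partner Wiz (-0.50; adjusted p = 0.464) and the X-linked demethylases Kdm5c (-0.40; adjusted p = 0.483) and Kdm6a (-0.50; adjusted p = 0.327). Kdm5c and Kdm6a escape X inactivation, and both were lower in the 3 libraries with low Xist than in the others, Kdm6a at 42.6, 39.8 and 54.2 CPM against 56.6 to 69.0 CPM in the libraries with high Xist. Uhrf1, which guides Dnmt1 to hemimethylated DNA, was called higher in Tau + vehicle (1.93; adjusted p = 0.242) and lower after UNC0642 (-2.08; adjusted p = 0.394), at only 0.237 to 1.37 CPM. Mbd4, a glycosylase that binds methylated DNA, was called higher after UNC0642 (0.49; adjusted p = 0.48).

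In Tau + vehicle against WT + vehicle the other calls were the PRC2 partner Phf1 (-0.27; adjusted p = 0.394), the NuRD subunit Mta1 (-0.43; adjusted p = 0.268), Sirt7 (-0.38; adjusted p = 0.279), the demethylase Kdm7a (0.30; adjusted p = 0.324) and Gadd45a (0.99; adjusted p = 0.207), a promoter of active DNA demethylation. Among the calls in the treated libraries against WT + vehicle were Kdm6a (-0.58; adjusted p = 0.0976), Wiz (-0.78; adjusted p = 0.119), Mta1 (-0.42; adjusted p = 0.241) and Sirt7 (-0.30; adjusted p = 0.342) lower, and Kdm7a (0.41; adjusted p = 0.182), Gadd45a (0.89; adjusted p = 0.21) and Gadd45b (0.49; adjusted p = 0.336) higher. None of these 67 reached an adjusted p under 0.05 by edgeR. The mRNAs of the drug targets were not called in any comparison. Ehmt1 ranged from 43.6 to 49.0 CPM and Ehmt2 from 131 to 161 CPM, with log2 fold changes from -0.10 to 0.09. By quantitative PCR in more mice, the study reported higher Ehmt2 mRNA in P301S Tau than in wild-type PFC, with Ehmt1 largely unchanged. The values here rest on 2 libraries per group, with the genotype of the library labelled WT replicate 1 in doubt.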

How the data were processed

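RNA from the PFC of 6 mice was made into stranded total RNA libraries after ribosomal RNA depletion. The authors trimmed reads with Cutadapt, aligned them with TopHat2 to mouse RefSeq mRNAs and counted them per gene with featureCounts on mm10, and they deposited raw read counts, 1 file per library. Versions and the strand setting of the counting are not given in the sources used here, so reads of overlapping genes on opposite strands may not be separable. Besides Setd1a and Eed, other called enzymes have overlapping annotated genes. These number 2 for Kmt2a (1 on the same strand), 4 for Kdm2b (2 on the same strand) and 2 for Tet1 (both on the same strand). Setd1b and Hdac7 have 1 each on the opposite strand, and Kmt2b and Kmt2d have 0. Coordinates are those of GENCODE M21. Date-like names stood in place of 26 gene symbols in 2 files and were joined by position; none belonged to the 47 enzymes.

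Counts as deposited were filtered (filterByExpr, minimum count 10), scaled by TMM (factors 0.966 to 1.04) and fitted with edgeR 4.0.16 (R 4.3.3), quasi-likelihood test, group as the only term, all 6 libraries in 1 fit with 3 residual degrees of freedom and a biological coefficient of variation of 12.3%. CPM uses the TMM-scaled totals, and intervals are 95%. A call needed at least a 1.2-fold difference with p under 0.05, with Benjamini-Hochberg adjustment over all 20409 genes beside it. Alternatives used DESeq2 1.42.0 and limma 3.58.1, other scalings and filters, a replicate block, a term for libraries with high Xist, and each library left out. The script was tested on simulated data. Offsets for GC content and transcript length (available for 20229 of 20409 genes) were added after seeing the data.

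The enzymes and all gene lists were chosen with earlier results of these data known, so no set test was run and no p was adjusted over a list. Every enzyme is named with its level. Fold changes with adjusted p are given for enzymes called in any comparison and for the one with the largest absolute value of its class in the first 2 comparisons, as well as for called genes of the further lists. 1 gene of the further lists is counted there but not reported here. The values with adjusted p for Hdac2, and the statements on Hdac5, Hdac6, Kmt2c, Kmt2e, Dnmt1 and Dnmt3a beyond their levels, were chosen after their values were seen. The labels number the libraries of each group, and the study describes these as biological duplicates, taken here as separate mice.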

Additional observations from a re-analysis of the deposited data

How the results depend on the processing

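With 2 mice per group, the number of enzymes called rests on single libraries and on the threshold. As reported, 9.81%, 7.69% and 9.47% of all genes were called in the 3 comparisons, and 0.157%, 0.0196% and 0.216% had an adjusted p under 0.05. Where no other share of all genes stands beside a count here, the count was not set against one. Such a count cannot be read as particular to the enzymes. For Tau + vehicle against WT + vehicle, 1 was called as reported (9.81% of all genes), 3 with library size alone (10.6%) and 3 with no filter (8.07%). Without a fold threshold 2 were called (12.4%), and 0 at an adjusted p under 0.05 (0.157%). For Tau + UNC0642 against Tau + vehicle, 5 were called as reported, 3 with library size alone, 3 with no filter, 3 with at least 10 counts in every library, 3 with the Xist term (Tet1, Sirt2 and Kat2b), 2 by the DESeq2 Wald test, 2 with offsets for GC content and 2 with offsets for GC content and transcript length (Setd1b and Tet1 in all 3), 0 at 1.5-fold (4.19% of all genes), 0 at an adjusted p under 0.05, and 0 to 5 when a library was left out, 0 being without UNC0642 replicate 2. For Tau + UNC0642 against WT + vehicle, 6 were called as reported, 2 at 1.5-fold (3.84% of all genes), 10 without a fold threshold (12.1%), 0 at an adjusted p under 0.05, and 5 to 8 when a library was left out. Without the library labelled WT replicate 1, 8 were called, all lower, and Kmt2d (lower) and Sirt2 (higher) were called in Tau + vehicle in place of Hdac7, as was Sirt2 alone with the Xist term.

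The median log2 fold change of the 47 in Tau + vehicle against WT + vehicle was -0.012 as reported, -0.081 with library size alone, -0.033 with at least 10 counts in every library, -0.048 with GC offsets, -0.033 with GC and length offsets, and -0.044 to 0.016 leaving out a library. In Tau + UNC0642 against Tau + vehicle it was -0.069, -0.041 with library size alone, -0.038 with GC offsets, -0.023 with GC and length offsets, and -0.099 to -0.035 leaving out a library. In Tau + UNC0642 against WT + vehicle it was -0.088, -0.125 with library size alone, -0.109 with GC offsets, and -0.120 to -0.049 leaving out a library. Of single log2 fold changes, these turned direction: Dnmt3b in Tau + vehicle against WT + vehicle, to 0.04 with the Xist term and 0.04 without the library labelled WT replicate 1 (range over left-out libraries -1.31 to 0.04); and against Tau + vehicle, Crebbp (0.03) and Hdac7 (-0.19) with the Xist term, Hdac7 (-0.19) without UNC0642 replicate 2 (range -0.19 to 0.63), and Dnmt3b, to 0.15 without Tau replicate 2 and 0.28 without UNC0642 replicate 1 (range -1.01 to 0.28). The causes were not tested.

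Replicate numbers were taken to mark different mice. Deviations of same-numbered libraries from their group means correlated at -0.034, -0.021 and -0.003, so the numbers showed no pairing. With a replicate block, 2 enzymes were called in Tau + vehicle against WT + vehicle (Hdac7 and Kmt2b), where 8.78% of all genes were. With that block 4 enzymes were called after UNC0642 and 5 in Tau + UNC0642 against WT + vehicle.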
